A study of Mus musculus with 7 samples.

Results

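Schwann cells and other glia are the supporting cells of nerves, and pancreatic islets carry a thin glial sheath. The 6 genes described here, Mbp, S100b, Sox10, Cdh19, Gfap and Ngfr, are markers of such cells. They were matched by Ensembl identifier, through GENCODE M21, among the 21899 genes listed in islet RNA-seq of second-generation (F2) male mice. All 6 were listed, and 4 of them averaged 10 counts or more. In the 2 islet libraries analysed, 1 of control-F2 islets (replicate 1) and 1 of AE-F2 islets (replicate 4), Mbp stood at 79.6 and 84.7 CPM (counts per gene divided by the scaled library size), whereas each of the other 5 lay between 0.376 and 1.98 CPM. Cdh19 was the only member whose difference between the libraries exceeded counting error, at 17 counts in control-F2 islets and 42 in AE-F2 islets, and 17.5% of all genes with a mean of 10 to 100 counts were likewise higher beyond counting error.

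The study asked whether androgen exposure (AE) of a pregnant female alters the metabolism of her male descendants. Wild-type C57BL/6J founder dams received dihydrotestosterone by subcutaneous injection late in pregnancy (AE) or the benzyl benzoate and corn oil vehicle alone (control). Their F1 sons, not treated further, were bred with unrelated wild-type females, and islets of the resulting F2 males were sequenced, so that neither group of F2 males received androgen itself and both carried wild-type genomes. The age of the sequenced males is not given in the sources used here, nor whether a library holds islets of 1 male or of several. Islets were freed by collagenase digestion, spun on a gradient and picked by hand, a procedure that can leave attached nerve, vessel and exocrine tissue in the sample. Labels name 3 control-F2 and 4 AE-F2 samples, and the other 5 were not analysed here. With 1 library per group there is no replicate spread and no test of the groups: each group name below stands for its single library, and every difference is between these 2 libraries.

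Glial cells of peripheral nerves arise from the neural crest. Sox10 is the transcription factor that specifies and maintains them, Cdh19 is a cadherin of Schwann cell precursors and non-myelinating Schwann cells, and Ngfr is the p75 neurotrophin receptor. S100b is a calcium-binding protein and Gfap an intermediate filament protein, both used to stain the glial sheath of islets, and Mbp is a structural protein of compact myelin. None of the 6 is found in glia alone. The Mbp locus also yields golli transcripts in cells that make no myelin, lymphocytes among them, and Ngfr and Gfap are also made by pancreatic stellate cells.

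The deposited values were estimated counts, summing to 16285876 after rounding in control-F2 islets and 21278503 in AE-F2 islets, so that 3 counts, the limit taken for a gene listed at 0, equal 0.184 and 0.141 CPM. Libraries were scaled with TMM factors, and ratios of AE-F2 to control-F2 were put on the log2 scale with 0.5 counts added to each count. The interval given beside a value is a 95% Poisson interval for the level in a single library and a 95% Clopper-Pearson interval for a ratio. Both cover counting error only, since PCR copies are not independent molecules and the spread between animals is unknown. Of 13627 genes averaging 10 counts or more, 3.16% were at least 2-fold higher and 0.653% at least 2-fold lower in AE-F2 islets, and the counting interval lay above equality for 13.4% and below it for 13.4%. Weakly expressed genes differed more, and more often upward: among genes with a mean of 10 to 100 counts, the class of Sox10, Cdh19 and Ngfr, 400 of 3087 were at least 2-fold higher, 17.5% had an interval above equality, 4.28% had an interval below it and 61.5% had a log2 ratio above 0.

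The study set islet expression beside DNA methylation of CG dinucleotides, so the windows upstream of the members are shown with each CG in capitals. Of the 6 members, 3 were matched to the RefSeq promoters of GRCm38.p6. Each line gives the 250 bases before the start site, 5′ to 3′ on the strand of the gene: S100b at chr10:76253586-76253835 (plus strand), Gfap at chr11:102897201-102897450 (minus strand) and Ngfr at chr11:95587699-95587948 (minus strand).
S100b: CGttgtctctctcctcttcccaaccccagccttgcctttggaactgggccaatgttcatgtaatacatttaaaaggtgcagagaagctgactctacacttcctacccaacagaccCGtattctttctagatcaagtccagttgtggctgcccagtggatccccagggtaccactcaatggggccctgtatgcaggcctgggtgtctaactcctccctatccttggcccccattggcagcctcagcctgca
Gfap: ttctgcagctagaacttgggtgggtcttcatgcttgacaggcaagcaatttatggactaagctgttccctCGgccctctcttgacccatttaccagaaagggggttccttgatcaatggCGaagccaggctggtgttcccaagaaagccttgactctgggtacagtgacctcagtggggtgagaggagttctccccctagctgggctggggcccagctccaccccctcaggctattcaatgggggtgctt
Ngfr: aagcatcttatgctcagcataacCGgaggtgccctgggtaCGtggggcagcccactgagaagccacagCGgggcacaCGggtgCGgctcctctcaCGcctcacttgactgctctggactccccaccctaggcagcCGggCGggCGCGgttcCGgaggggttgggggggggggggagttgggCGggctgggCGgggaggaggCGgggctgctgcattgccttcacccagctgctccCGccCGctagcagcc
The windows of S100b and Gfap each held 2 CG dinucleotides, and 81.2% of the 32851 promoter windows of this length held at least as many. The Ngfr window held 16, a number reached by 25.4% of windows, and its share of G and C was 70.4% against a median of 52.4%. Methylation at these sites was not measured here. The letters ACAAAG and ACAATG, which Sox proteins bind, were searched on both strands and were in none of the 3 windows, whereas 16.5% and 10.7% of all windows held them.

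Mbp was the member with the most counts and thus the smallest counting error. It had 1298 counts in control-F2 islets, or 79.6 CPM (75.3 to 84.0), and 1800 in AE-F2 islets, or 84.7 CPM (80.8 to 88.7). The 2 values are close and their intervals overlap. The log2 ratio was 0.09 (-0.01 to 0.19), so a change larger than 1.14-fold in favour of AE-F2 islets lies outside counting error for these libraries. GENCODE M21 lists 16 transcripts of Mbp, and counts per gene do not separate the myelin forms from the golli forms.

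Cdh19, the cadherin of Schwann cell precursors, had 1.04 CPM (0.607 to 1.67) in control-F2 islets and 1.98 CPM (1.42 to 2.67) in AE-F2 islets. The AE-F2 value was higher, although the intervals of the 2 levels overlap. Its ratio was 1.86-fold (counting interval 1.06 to 3.55), a log2 ratio of 0.90 (0.08 to 1.83). Sox10, the lineage regulator, had 17 counts in control-F2 islets and 33 in AE-F2 islets. These equal 1.04 CPM (0.607 to 1.67) and 1.55 CPM (1.07 to 2.18), a log2 ratio of 0.55 (-0.31 to 1.51). Ngfr, the neurotrophin receptor, had 18 and 30 counts, 1.10 CPM (0.654 to 1.74) in control-F2 islets and 1.41 CPM (0.953 to 2.02) in AE-F2 islets. Its log2 ratio was 0.34 (-0.53 to 1.28). All 3 genes were thus higher in AE-F2 islets, but only the interval of Cdh19 left out equality. For Sox10 and Ngfr the depth was too low to tell differences of the size seen, 1.47-fold and 1.27-fold, from equality.

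S100b and Gfap, the proteins used to stain islet glia, were the members with the fewest counts, and their means of under 10 counts kept them out of the counts over all genes. S100b had 7 counts in control-F2 islets and 10 in AE-F2 islets, or 0.429 CPM (0.173 to 0.884) and 0.471 CPM (0.226 to 0.865). Its log2 ratio of 0.10 had an interval from -1.41 to 1.76, and with 5 counts added in place of 0.5 it was -0.06, so that it has no settled direction. Gfap had 10 counts in control-F2 islets and 8 in AE-F2 islets, 0.613 CPM (0.294 to 1.13) and 0.376 CPM (0.163 to 0.742). Its log2 ratio was -0.69 (-2.25 to 0.79). The depth was too low to tell a difference of the size seen from equality in either gene. The fold of Gfap may lie anywhere from 0.211 to 1.73 by counting error alone.

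**Figure D1:**
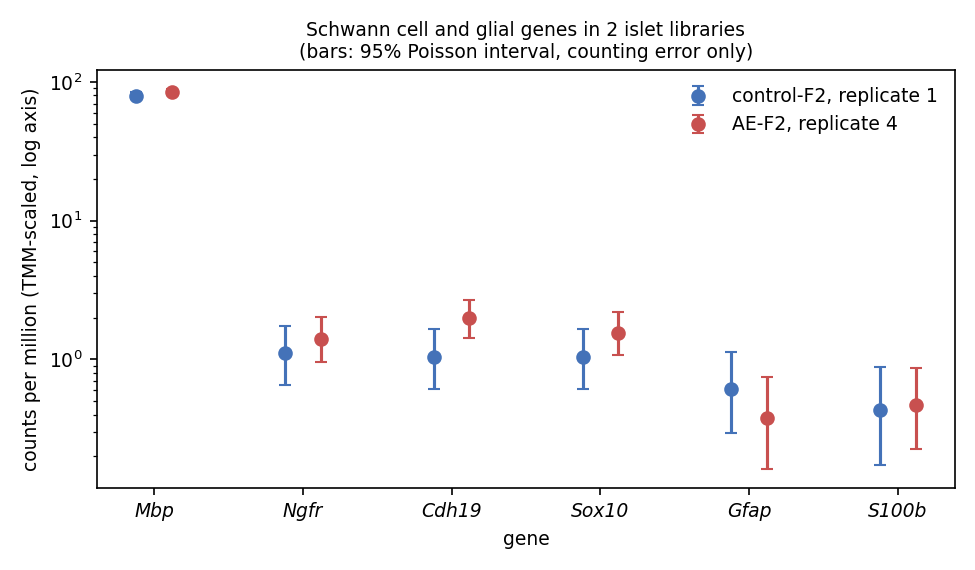
Level of each member in control-F2 islets (blue) and AE-F2 islets (red), in TMM-scaled CPM on a log axis, with bars for the 95% Poisson interval. Mbp lies near 80 CPM in both libraries, and the other 5 genes lie between 0.376 and 1.98 CPM with intervals that overlap between the libraries.

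Of the 4 members averaging 10 counts or more, none was 2-fold higher or lower, and 1 (Cdh19) was at least 1.5-fold higher, as were 6.04% of all genes. The same gene had an interval above equality, as did 13.4% of all genes and 17.5% of those with a mean of 10 to 100 counts. Each of the 4 members had a log2 ratio above 0, with a median of 0.45. Over all 13627 genes 6818 had a log2 ratio above 0 and the median was 0.00, and over the 3087 genes with a mean of 10 to 100 counts it was 0.15. Sox10, Cdh19 and Ngfr lie at the low end of that class, and over the 1666 genes with a mean of 10 to 40 counts the median was 0.24, the upper quartile was 0.78 and 1060 genes were above 0. Together the 6 members had 1367 counts in control-F2 islets and 1923 in AE-F2 islets, 1.08-fold higher (1.01 to 1.16). Mbp made up 94.95% and 93.60% of these counts. Without Mbp, a sum chosen after its share was seen, the remaining 5 had 69 and 123 counts, 1.37-fold higher (1.01 to 1.86). Both sums rest on Cdh19. Without it the sum of the other 5 was 1.07-fold higher (0.997 to 1.15), and with Mbp also left out the log2 ratio of the other 4 was 0.26 (-0.26 to 0.79). The sum without Mbp also took in equality without Sox10 (log2 ratio 0.41, -0.10 to 0.93) and without Ngfr (0.48, -0.02 to 1.01). In bulk islets, more glial cells and more RNA per glial cell cannot be told apart.

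To compare the members with each other, counts were divided by the length of the longest annotated transcript and scaled to a common total (TPM). Mbp led in both libraries, at 31.8 TPM (30.1 to 33.5) in control-F2 islets and 32.9 TPM (31.4 to 34.5) in AE-F2 islets. In control-F2 islets Sox10 followed at 0.718 TPM, then Ngfr at 0.613, S100b at 0.554, Cdh19 at 0.510 and Gfap at 0.443, and the interval of each of these genes overlapped that of its neighbour in the order. In AE-F2 islets the order was Sox10 at 1.04 TPM, Cdh19 at 0.941, Ngfr at 0.764, S100b at 0.591 and Gfap at 0.265, again without a gap between neighbours beyond counting error. Mbp was thus 44.2 times the level of Sox10 in control-F2 islets and 31.6 times in AE-F2 islets, and with the merged length of all exons in place of the longest transcript these were 27.5 and 19.7 times. It was also above the other myelin genes, at 2.82 and 2.92 times the level of Pmp22 (2.06 and 2.14 with merged exons), a membrane protein of compact myelin that other cells also make.

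The relatives of the members differed in level. Among the SoxE transcription factors, Sox9, which ducts also express, had 0.710 TPM in control-F2 islets and 0.573 in AE-F2 islets, with 25 and 27 counts, whereas Sox8 had 3 counts in each. S100b was a minor S100 gene in these islets, since S100a11 stood at 231 and 265 TPM, and S100a10 at 60.3 and 64.5. Of 16 S100 genes, 5 had 0 counts in both libraries, S100a8 and S100a9 of neutrophils among them, and 8 averaged 10 counts or more. Of these 8, 7 had a log2 ratio above 0 and 2 an interval above equality, S100a1 at 0.33 (0.13 to 0.53) and S100a11 at 0.23 (0.12 to 0.35). Of the type III filament genes, Vim, which marks mesenchymal cells as well as glia, was 18.8 times the level of Gfap in control-F2 islets and 64.9 times in AE-F2 islets. Vim had 208 and 574 counts, a log2 ratio of 1.08 (0.85 to 1.32). Des, the filament of muscle-type cells, had a log2 ratio of 0.58 (0.13 to 1.05) and Prph, the filament of peripheral neurons, of 0.45 (0.02 to 0.91). The interval of Gfap is wide enough to hold the ratios of Des and Prph.

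**Figure D2:**
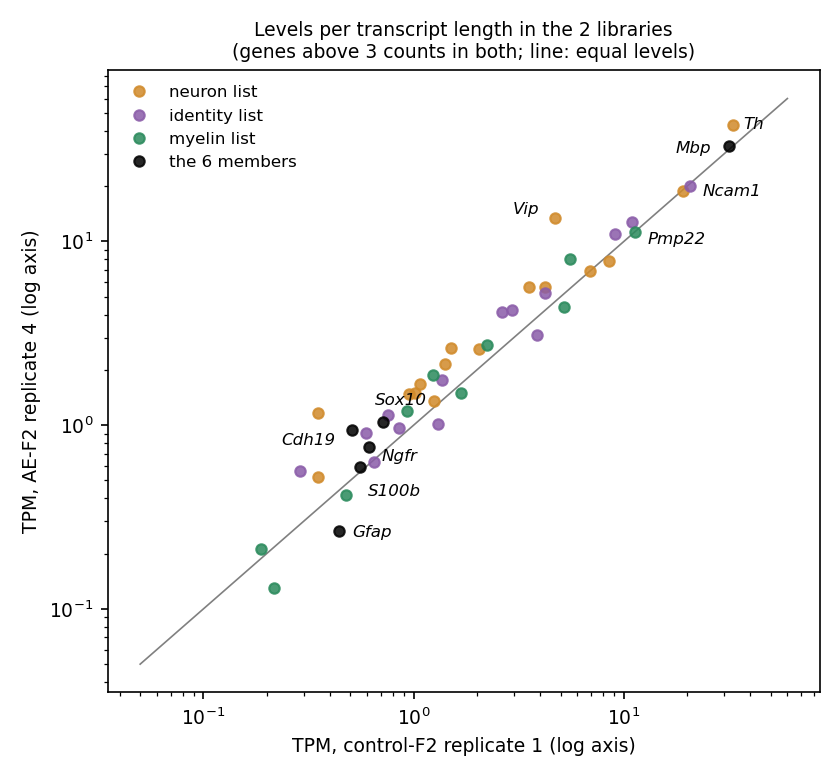
Level per transcript length in control-F2 islets (x axis) and AE-F2 islets (y axis), in TPM on log axes, for the members and the genes of the myelin, identity and neuron lists with more than 3 counts in both libraries. Points above the line were higher in AE-F2 islets. Mbp lies on the line at 31.8 and 32.9 TPM, Gfap lies below it, and Cdh19 and Vip lie above it.

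A list of 16 further myelin genes was set beside Mbp. Of these, 8 averaged 10 counts or more, with a median log2 ratio of 0.19, 5 above 0 and 3 below, and none was past 2-fold. Pmp22, the gene with the most counts, had 175 and 234 counts and a log2 ratio of 0.04 (-0.25 to 0.33). Cnp, an enzyme of non-compact myelin that is also made outside glia, was the only gene among these 8 with an interval above equality, at 137 and 266 counts and a log2 ratio of 0.57 (0.27 to 0.88). Egr2, the transcription factor of the myelin programme and also an immediate early gene, had 12 and 14 counts. Mag, a myelin adhesion protein named here after its values were seen, had 0 counts in control-F2 islets and 7 in AE-F2 islets, at least 1.79-fold higher when 3 counts are taken as the limit for the 0, while the counting interval of the ratio starts at 1.11-fold, and Gldn had 0 in both. Summed, the 16 genes had 618 and 947 counts, 1.18-fold higher in AE-F2 islets (1.06 to 1.30), but without Cnp, left out after its counts were seen, the other 15 were 1.09-fold higher with equality inside the interval (0.965 to 1.22). No gene averaging 10 counts or more had an interval below equality.

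The list of Schwann cell identity genes held 20 genes that mark precursors and non-myelinating Schwann cells or act in axon contact. Of these, 14 averaged 10 counts or more. Summed, the 20 genes of the list had 2267 and 3198 counts, 1.08-fold higher (1.03 to 1.14). The median log2 ratio of the 14 was 0.32, 10 were above 0 and 4 below, 5 had an interval above equality and none below, and none was past 2-fold. Among the 10 with a mean of 10 to 100 counts, 8 were above 0 and 3 had an interval above equality, against 17.5% of all genes in that class. In the same class none of 5 genes of the myelin list and none of 3 of a list of repair genes had such an interval, so that it was 3 of 18, or 16.7%, over the 3 lists. The 4 with the most counts were the adhesion genes Ncam1, Matn2, Cadm4 and L1cam, which neurons or endocrine cells also express. Ncam1 had 70.9 CPM in control-F2 islets and 70.8 in AE-F2 islets, a log2 ratio of -0.00 (-0.11 to 0.11). Matn2 had 333 and 520 counts, a log2 ratio of 0.26 (0.06 to 0.46), and Cadm4 had 168 and 269, a log2 ratio of 0.30 (0.01 to 0.58). L1cam had 168 and 181 counts, a log2 ratio of -0.27 (-0.59 to 0.04).

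The other 3 identity genes with an interval above equality, named here after their values were seen, were Adgrg6, Gfra3 and Scn7a. Adgrg6 encodes an adhesion receptor that Schwann cells need to myelinate. It had 16 counts in control-F2 islets and 42 in AE-F2 islets, a log2 ratio of 0.98 (0.15 to 1.94). Gfra3, the co-receptor for artemin, had 45 and 94 counts, a log2 ratio of 0.67 (0.15 to 1.23). Scn7a, a sodium channel of non-myelinating Schwann cells, had 37 and 76 counts, a log2 ratio of 0.65 (0.07 to 1.26). Lgi4, which Schwann cells secrete to sort axons, had 26 and 52 counts, a log2 ratio of 0.60 (-0.09 to 1.36). A pair of identity genes below the minimum mean, named after their values were seen, lay the other way. Foxd3, a transcription factor of the neural crest, had 12 counts in control-F2 islets and 3 in AE-F2 islets, a log2 ratio of -2.22 (-4.85 to -0.49), and Kcna1, a potassium channel, had 10 and 3, a log2 ratio of -1.97 (-4.62 to -0.16).

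**Figure D3:**
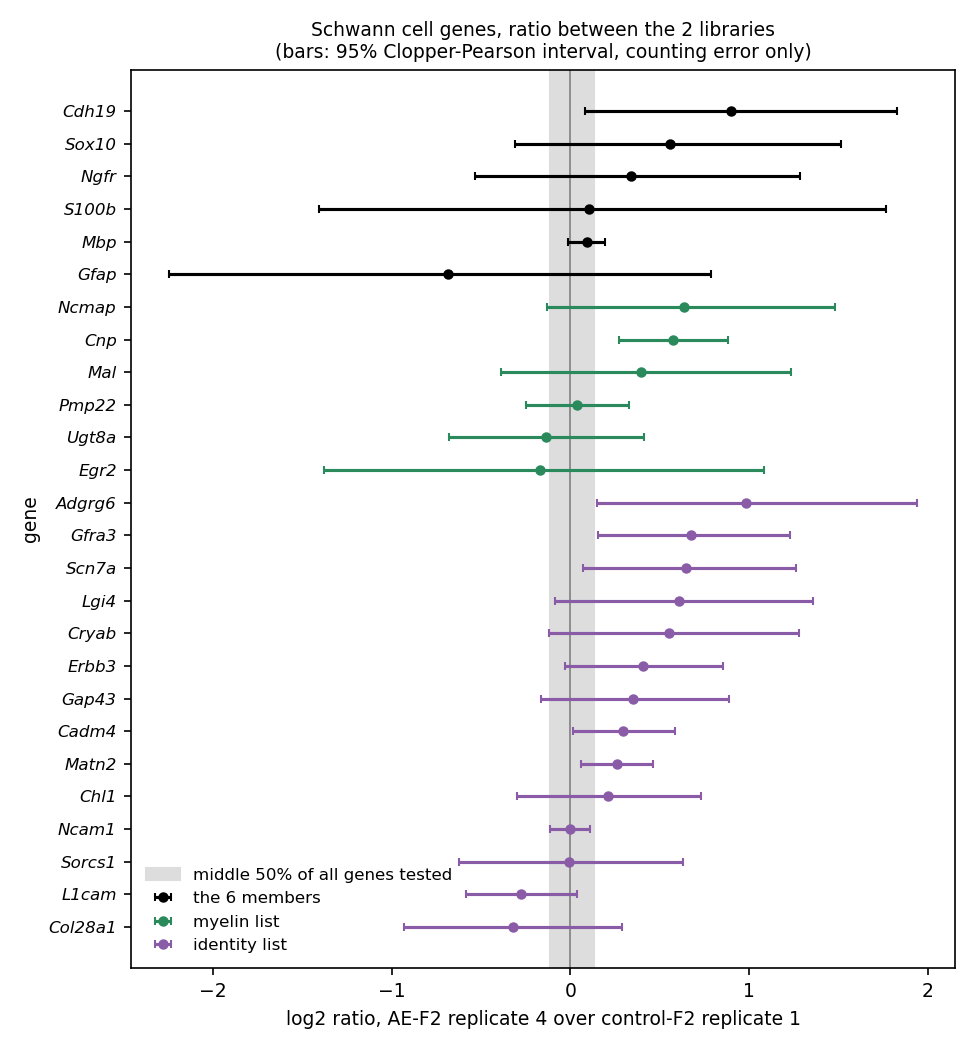
Log2 ratio of AE-F2 to control-F2 for the 6 members (black) and for genes of the myelin list (green) and the identity list (purple) averaging 10 counts or more, with bars for the 95% Clopper-Pearson interval. The grey band holds the middle 50% of all genes tested. The bars of Cdh19, Cnp, Adgrg6, Gfra3, Scn7a, Cadm4 and Matn2 lie to the right of 0, and no bar lies wholly to the left of it.

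After nerve injury Schwann cells take up a repair state, with Shh, Gdnf, Artn and Olig1 among its marks. Of the 10 genes of this list, Shh and Olig1 had 0 counts in both libraries and Gdnf had 0 and 1. Of the 5 averaging 10 counts or more, Vim had an interval above equality and was past 2-fold. Nes, an intermediate filament of progenitors and vessels, had a log2 ratio of -0.30 (-0.65 to 0.05), Bdnf of -0.43 (-1.25 to 0.38) and Btc of 0.30 (-0.63 to 1.32), and Artn had 11 and 16 counts. Apart from Vim, no gene of the repair list differed beyond counting error.

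Schwann cells depend on neuregulin from axons, read by Erbb2 and Erbb3, and Ngfr binds neurotrophins and their precursors. Nrg1, a neuregulin gene, had 16 counts in control-F2 islets and 29 in AE-F2 islets, a log2 ratio of 0.46 (-0.45 to 1.46). Erbb3, the neuregulin receptor that Sox10 controls, had 70 and 121 counts, a log2 ratio of 0.40 (-0.03 to 0.85). Erbb2, its partner, had 23 and 40 counts, a log2 ratio of 0.40 (-0.36 to 1.22). Of the 10 genes of the neuregulin list, 7 averaged 10 counts or more, with a median log2 ratio of 0.16, and only Bace1, the protease that cleaves neuregulin and is abundant in β-cells, had an interval that left out equality, at -0.20 (-0.30 to -0.10).

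Transcripts of some partners of Ngfr were far more abundant than its own, and others were not. Sort1, its co-receptor for neurotrophin precursors, stood at 92.7 TPM in control-F2 islets and 87.2 in AE-F2 islets, with a log2 ratio of -0.05 (-0.10 to 0.00). Maged1, which binds the inner part of the receptor, had 30051 and 36763 counts and a log2 ratio of -0.09 (-0.11 to -0.07). Rtn4r, the Nogo receptor and named after its values were seen, had 10 and 6 counts, or 0.606 and 0.272 TPM against 0.613 and 0.764 for Ngfr. Ntrk2, the receptor for Bdnf, had a log2 ratio of -0.17 (-0.23 to -0.10) and Ret, the signalling receptor for the Gdnf family, of 0.11 (0.03 to 0.19). Of the 22 genes of the neurotrophin and Gdnf list, 17 averaged 10 counts or more, with 5 intervals above equality, 3 below, none past 2-fold, and a median log2 ratio of 0.11. Of all genes averaging 10 counts or more, 13.4% had an interval above equality and 13.4% below it. Gfra3 and Gfra2, the co-receptors for artemin and neurturin, had the same log2 ratio of 0.67.

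Islet Schwann cells lie beside nerve fibres and small ganglia, so markers of peripheral neurons were counted in the same libraries. Of 18 such genes, 16 averaged 10 counts or more. Their median log2 ratio was 0.59, 15 were above 0, 8 had an interval above equality and none below, and 2 were at least 2-fold higher. Among the 10 with a mean of 10 to 100 counts, 10 were above 0 and 5 had an interval above equality. Of all genes in that class, 61.5% were above 0 and 17.5% had such an interval. Of all genes averaging 10 counts or more, 3.16% were at least 2-fold higher. The summed level of the 18 genes was 139.5 CPM in control-F2 islets and 179 in AE-F2 islets, and none of them was at 0 in both libraries. Without Vip and Th, left out after their counts were seen, the other 16 genes summed to 99.7 and 115 CPM. That sum was 1.16-fold higher in AE-F2 islets (1.09 to 1.23). Vip, a neuropeptide of parasympathetic ganglia, had 101 and 387 counts, a log2 ratio of 1.55 (1.24 to 1.89), and Th, the enzyme of catecholamine synthesis that some β-cells also make, had 548 and 958, a log2 ratio of 0.42 (0.27 to 0.58). Elavl4, Nefm and Nefh, which endocrine cells may share, had log2 ratios of 0.02, -0.08 and 0.04, with equality inside each interval. The part of nerve tissue in the values of the 6 members was not tested.

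Markers of central glia were at or near 0, apart from 2 genes. Mog, Mobp, Opalin, Olig2 and Gjb6 had 0 counts in both libraries, and Slc1a2 and Slc1a3, the glutamate transporters of astrocytes, each had 1 count in control-F2 islets and 9 in AE-F2 islets. Aqp4, a water channel that other epithelia also make, had 337 and 471 counts, a log2 ratio of 0.10 (-0.10 to 0.31). Aldh1l1, a folate enzyme of astrocytes and liver, was lower in AE-F2 islets, with 33 counts in control-F2 islets and 11 in AE-F2 islets, a log2 ratio of -1.92 (-3.10 to -0.95).

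Markers of other cell types also differed between the 2 libraries. Of all genes averaging 10 counts or more, 13.4% had an interval above equality and 13.4% below it. At least 2-fold higher were 3.16% of them. Of the 11 genes of the fibroblast and stellate list averaging 10 counts or more, 8 had an interval above equality and 5 were at least 2-fold higher, with a median log2 ratio of 0.98, and the summed level of the 12 genes was 56.4 CPM in control-F2 islets and 107 in AE-F2 islets. Pdgfra, a receptor of fibroblasts, had 10 and 43 counts, a log2 ratio of 1.67 (0.71 to 2.88), and the collagen gene Col1a1 had a log2 ratio of 1.23 (0.91 to 1.57). Lrat, which marks retinoid-storing stellate cells, had 0 counts in control-F2 islets and 1 in AE-F2 islets. The 7 pericyte genes had a median log2 ratio of 0.08 and the 8 endothelial genes of -0.04. All 8 genes of the B cell list had an interval above equality and 7 were past 2-fold. Their summed level was 11.5 CPM in control-F2 islets and 42.5 in AE-F2 islets. Without Cd79a, which held 52.1% of these counts, the other 7 genes had 10 and 513 counts, 39.4-fold higher (21.2 to 82.6). Cr2 and Ly6d were at 0 in control-F2 islets. The acinar genes were lower in AE-F2 islets, with 7 of 7 intervals below equality and a median log2 ratio of -0.44, and the β-cell list had a median of -0.10. The α-cell, myeloid and duct lists had medians of 0.15, 0.14 and 0.05, with Lyz2 of myeloid cells (log2 ratio 1.96, 1.67 to 2.27) and the keratin gene Krt19 (1.24, 0.28 to 2.41) past 2-fold. C1qa, the myeloid gene with the most counts, lay the other way at -0.25 (-0.42 to -0.09). The part of these cell types in the values of the 6 members was not tested.

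**Figure D4:**
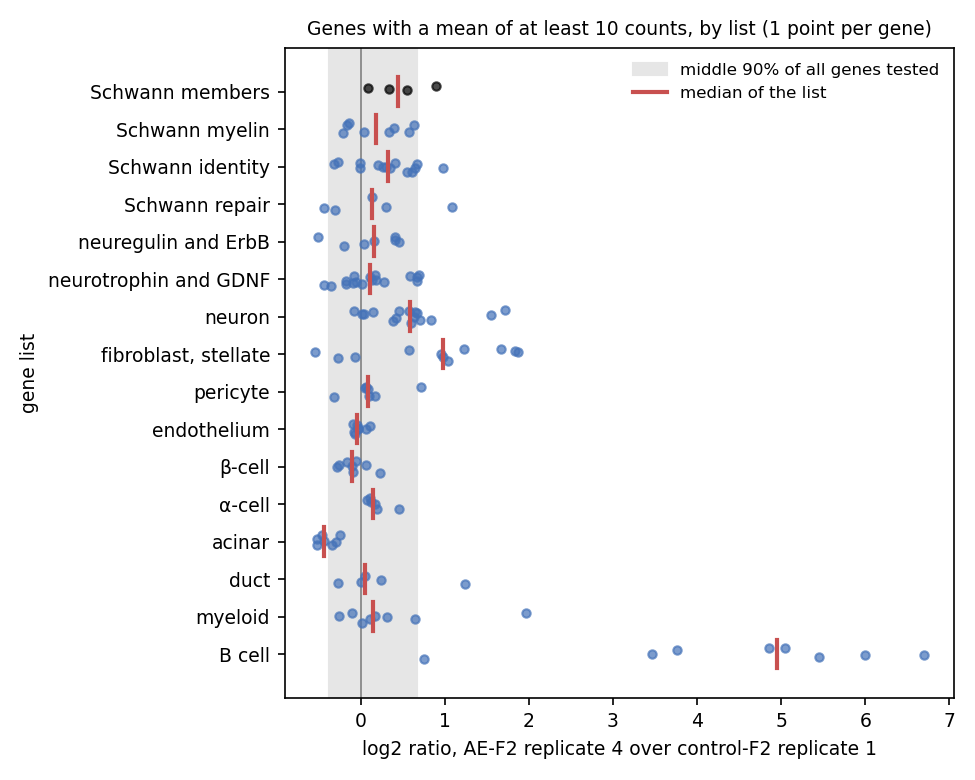
Log2 ratio of AE-F2 to control-F2 for every gene averaging 10 counts or more, by list, with the median of each list in red and the middle 90% of all genes tested in grey. The 4 members (black) lie between 0.09 and 0.90 with a median of 0.45, the neuron list has a median of 0.59 and the fibroblast and stellate list of 0.98, and the B cell list lies furthest from 0.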

How the data were processed

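Islets of F2 males were studied through 1 control-F2 and 1 AE-F2 library, with groups taken from the sample labels. The authors enriched mRNA with Oligo (dT) beads, and deposited estimated counts per gene that were not scaled for depth or length. Their methods name HISAT2 for alignment, and the submitters' processing notes name Bowtie2, RSEM and DESeq2. The versions of these last 3 tools, the genome build and the gene annotation are not given in the sources used here. Of the 21899 identifiers, 21806 matched a symbol in GENCODE M21, which also gave transcript lengths. In control-F2 islets 8.56% of values were not whole numbers and in AE-F2 islets 9.28%.

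Counts were rounded. TMM factors came from edgeR 4.0.16 in R 4.3.3, over the 13627 genes averaging 10 counts or more. Intervals (95%) came from scipy 1.17.1. With 1 library in each group, no test was run. The ratios and intervals were tested on simulated libraries. Alternatives were other scalings (library totals, DESeq2 1.42.0 size factors, upper quartile, totals without the 10 most abundant genes), minimum means of 1 and 50 counts, a pseudocount of 5 counts, a 1.5-fold threshold, counts not rounded and merged exon lengths.

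The 6 members and all gene lists were chosen with earlier results of these data known. Genes named are the members, up to 4 of the genes with the highest mean CPM of each list, and list genes past 2-fold whose interval leaves out equality, though not all of these are printed, and the values of some list genes are not reported here. Nrg1, Erbb2, Lgi4, Egr2, Artn, Adgrg6, Scn7a, Gfra2, Gfra3, Mag, Gdnf, Rtn4r, Lrat, Foxd3, Kcna1 and the genes at 0 in both libraries lie outside this rule and were named after their values were seen.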

Additional observations from a re-analysis of the deposited data

How the results depend on the processing

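No paired analysis was possible because the 2 libraries analysed, control-F2 replicate 1 and AE-F2 replicate 4, share no replicate number. The log2 ratio of each of the 6 members stayed within its own counting interval under every alternative run, 36 values in all. That of S100b turned from 0.10 to -0.06 with a pseudocount of 5 counts. With merged exon lengths the ratio of Mbp to Sox10 was 27.5 and 19.7 in place of 44.2 and 31.6. The summed ratio of the 6 members was decided by Mbp: without it the log2 ratio was 0.45 in place of 0.11, and with each of the 4 other scalings both sums stayed within counting error. No member (0) was at least 2-fold higher, and with a 1.5-fold threshold 1 was (Cdh19). Over the related lists, 17 genes were at least 2-fold higher and 1 at least 2-fold lower. Raising the minimum mean to 50 counts left 6 and 0, and lowering it to 1 count gave 25 and 4. A 1.5-fold threshold gave 36 higher genes. The central glia list, at a median log2 ratio of -0.91 over 2 genes, moved to 1.19 when the minimum mean was 1 count and to 0.10 when it was 50. Depth limits what can be seen of Sox10, Ngfr, S100b and Gfap, whose intervals all include equality. Leaving out a replicate was not run, since each group had 1 library.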
